A study of Rattus norvegicus with 18 samples.

Results

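Kupffer cell and resident macrophage markers comprised 10 genes of the 32623 listed for rat liver, chosen by gene symbol: Marco, Clec4f, Cd163, Vsig4, Timd4, Cd5l, Cd68, Adgre1, Mrc1 and Csf1r. Of these, 9 passed the filter on low counts and were tested, and Timd4 did not. Kupffer cells are the macrophages that line the liver sinusoids, where they clear bacteria, damaged red cells and cell debris from portal blood. Most are seeded before birth and renew themselves in place under signalling through the receptor encoded by Csf1r, and in injured liver monocytes from blood can also give rise to macrophages. Clec4f, Vsig4, Timd4, Marco and Cd5l are used as markers of the resident Kupffer cell, whereas Cd68, Adgre1, Mrc1, Cd163 and Csf1r are shared with other macrophages, and Mrc1 is also made by sinusoidal endothelium.

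Liver RNA was sequenced from male Wistar rats housed 2 per cage, with 1 library per rat and 6 rats in each of 3 groups. NASH rats inhaled carbon tetrachloride (CCl4), a hepatotoxin, with phenobarbital in the drinking water for 6 weeks, followed by 4 weeks on a diet rich in fat and cholesterol (HFCD). NASH-CH rats, the cirrhotic model, received CCl4 and phenobarbital for 24 weeks in all, with HFCD added for the last 16. Control rats were kept on standard chow and normal water for 12 weeks, which matches the duration of neither model, so time on protocol, age and treatment cannot be told apart. Both models were compared with the same 6 control rats.

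Levels are in CPM, reads scaled to a common library size by the TMM method, and changes are log2 fold changes from one limma-voom fit of all 18 rats, called at a Benjamini-Hochberg adjusted p under 0.05 over 12904 genes. Library totals had medians of 25631238, 23936219 and 48582057 counts for control, NASH and NASH-CH rats, and no NASH-CH library overlapped the others, so depth and this group cannot be told apart. Control rat 5 had the lowest TMM factor of its group (0.790) and the highest level of its group for 8 of the 9 tested markers. NASH-CH rat 5 stood apart in the summed CPM of the leukocyte list (171 against at most 83.2 in the rest of its group), of the neutrophil list (6.47 against 2.51), of the dividing cell list (64.1 against 5.34), and of the lipid-associated macrophage list (433 against 284). The same held for the cholangiocyte list (45.6 against 13.2) and the T cell list (3.38 against 1.28). Counts of the tested markers are also given without these rats. In whole-tissue RNA, fewer cells of a type and less RNA per cell cannot be told apart. By tissue staining, the study reported more macrophages positive for CD68 and for CD163 in NASH-CH than in control livers. In NASH livers its counts were higher without reaching significance. How those protein-based counts relate to the RNA levels was not tested.

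The promoters of 3 markers are shown because their genes behaved differently: Marco and Cd5l had the largest decreases, and Cd68 had no detectable change. They come from RefSeq (GRCr8, another build than the Rnor_6.0 build of the counts), in which all 10 markers were matched by symbol. Each run is the 250 bases before the annotated start, and capitals mark GAGGAA, the core of sites bound by the macrophage factor PU.1, or its reverse complement TTCCTC.
Marco, chr13:34201256-34201505, minus strand: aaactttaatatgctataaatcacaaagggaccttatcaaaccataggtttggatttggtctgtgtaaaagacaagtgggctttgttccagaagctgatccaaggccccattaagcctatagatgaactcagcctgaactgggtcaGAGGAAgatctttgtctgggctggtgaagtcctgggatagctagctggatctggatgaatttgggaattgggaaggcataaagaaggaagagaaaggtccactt
Cd5l, chr2:175088665-175088914, plus strand: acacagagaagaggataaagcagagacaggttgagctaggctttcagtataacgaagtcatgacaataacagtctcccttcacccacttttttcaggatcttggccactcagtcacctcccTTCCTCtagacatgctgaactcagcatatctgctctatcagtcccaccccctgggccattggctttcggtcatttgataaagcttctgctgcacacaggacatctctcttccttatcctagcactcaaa
Cd68, chr10:54882442-54882691, minus strand: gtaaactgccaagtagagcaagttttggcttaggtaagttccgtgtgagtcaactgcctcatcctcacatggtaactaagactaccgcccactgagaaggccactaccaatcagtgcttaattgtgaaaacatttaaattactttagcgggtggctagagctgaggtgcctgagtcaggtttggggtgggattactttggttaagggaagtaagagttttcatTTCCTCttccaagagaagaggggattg
The motif began 104 bases before the start in Marco, 129 in Cd5l and 27 in Cd68. GAGGAA was present on either strand in 6 of the 10 marker promoters (Marco, Cd5l, Cd68, Adgre1, Mrc1 and Csf1r) and in 23.3% of all 33469 promoters of this length. The longer form GAGGAAGT was in 0 of 10 (2.04% of all promoters), the AP-1 motif TGANTCA was in Cd68 alone (6.34%), and the MAF motif TGCTGA was in Timd4, Cd5l and Adgre1 (15.1%). Marco's RefSeq gene span, chr13:34169011-34210340, extends beyond its window, so this stretch lies inside the annotated gene. These matches describe letters in a window and do not show binding.

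Marco, the scavenger receptor that binds bacteria and modified lipoproteins, was the marker with the largest decrease in both models. It ranged from 12.7 to 43.2 CPM in control rats (median 24.0), from 2.36 to 9.56 in NASH rats (median 3.02) and from 1.10 to 14.6 in NASH-CH rats (median 6.63). These levels rested on 355 to 872 reads per control rat, 59 to 228 per NASH rat and 64 to 727 per NASH-CH rat. Every NASH rat lay below every control rat, whereas 4 of 6 NASH-CH rats did. The decrease was 6.89-fold in NASH (95% interval of the log2 change -4.00 to -1.57), which placed Marco 28th from the lowest log2 fold change of all tested genes. In NASH-CH it fell by 2.15 on the log2 scale (SE 0.48, limma adjusted p = 0.00568), or 4.44-fold, 165th from the lowest. Relative to its mean, the NASH-CH group was spread most widely, with a coefficient of variation of 73.8% against 68.3% in NASH and 39.5% in control: rats 1 and 4 stood at 14.6 and 14.1 CPM, above the lowest control rat, and rat 3 stood at 1.10 CPM. Between the models the log2 difference was 0.63 (SE 0.59, 95% interval -0.61 to 1.87, adjusted p = 0.632), an interval that spans values on both sides of 0. The call was kept in all 12 other analyses and in all 12 fits that left out 1 rat, for either model.

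**Figure D1:**
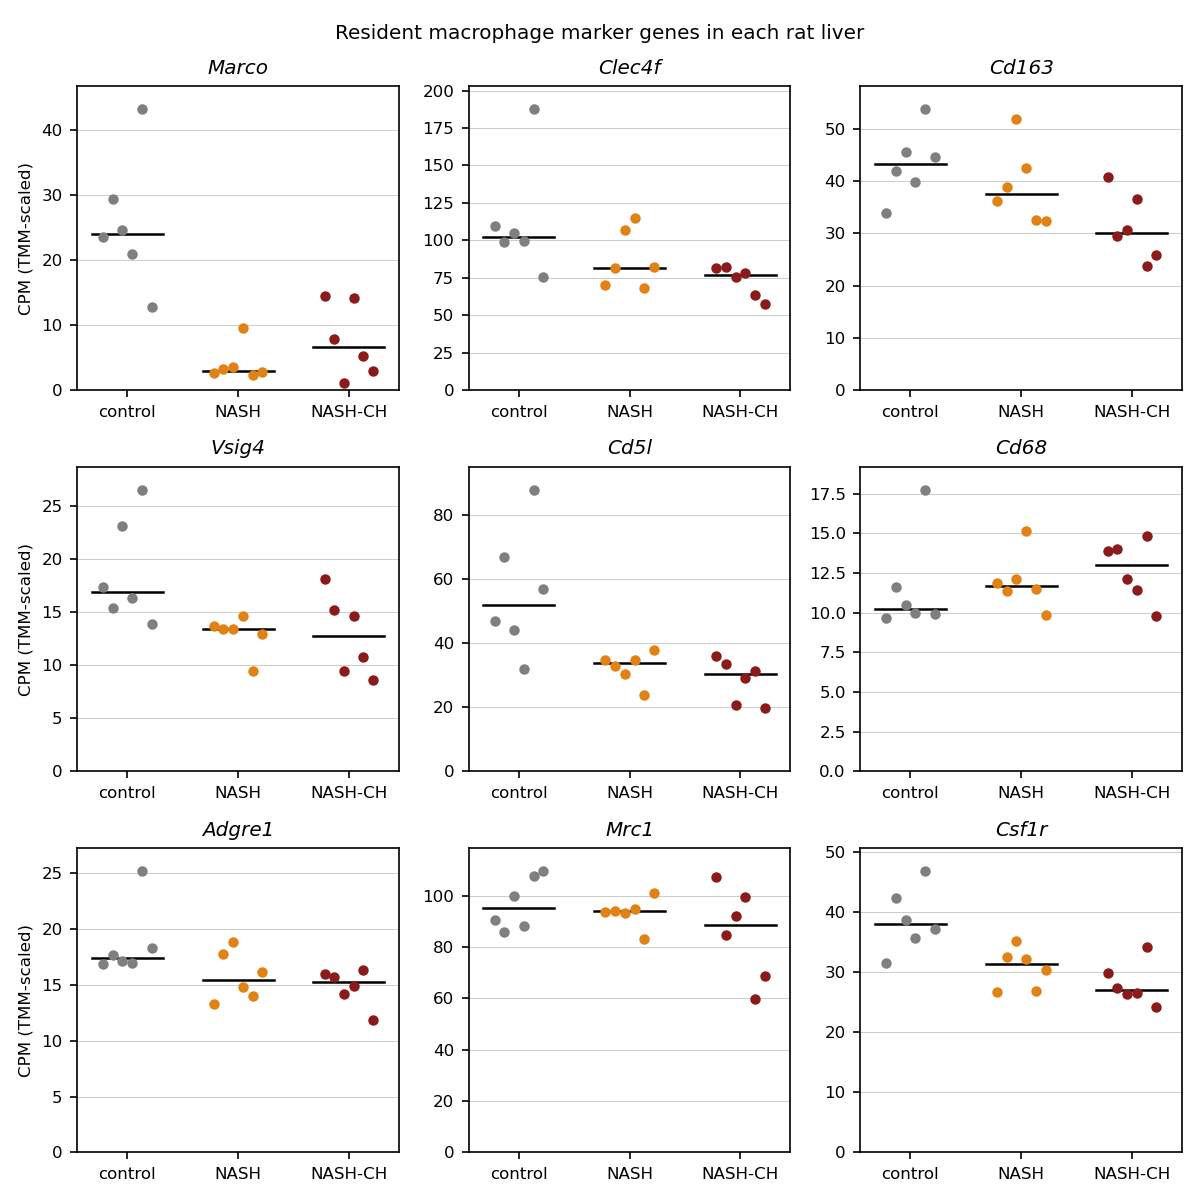
CPM (TMM-scaled, linear axes from 0) of the 9 tested markers in each of 18 rat livers, with a line at the median of each group of 6. Marco in NASH rats (2.36 to 9.56 CPM) lies below all control rats (12.7 to 43.2 CPM), Cd68 spans similar ranges in all groups, and 1 control rat, rat 5, is the highest control in 8 of the 9 panels.

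In NASH rats Marco was the only one of the 9 tested markers past the threshold, where 3.12% of all tested genes passed (1.54% lower and 1.58% higher in NASH). In NASH-CH rats 6 of the 9 markers fell and 0 rose, where 17% of all tested genes passed (8.6% lower and 8.38% higher in NASH-CH). The median log2 fold change of the 9 markers was -0.33 in NASH and -0.48 in NASH-CH, beside 0.0072 and 0.013 over all tested genes. In both comparisons 8 of the 9 estimates were below 0 and that of Cd68 was above. The NASH-CH count depended on single rats: it was 3 (Marco, Cd5l and Csf1r) without control rat 5, 3 again without NASH-CH rat 6 or control rat 3, 4 (with Adgre1 added) without NASH-CH rat 5, and 3 without both rats 5. In NASH the count was 1 (Marco) without either of these rats or both. Scaling by library size only shifted the all-gene median to 0.23 for NASH and 0.27 for NASH-CH and left 1 and 2 markers past the threshold, Marco for both models and Cd5l for NASH-CH.

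**Figure D2:**
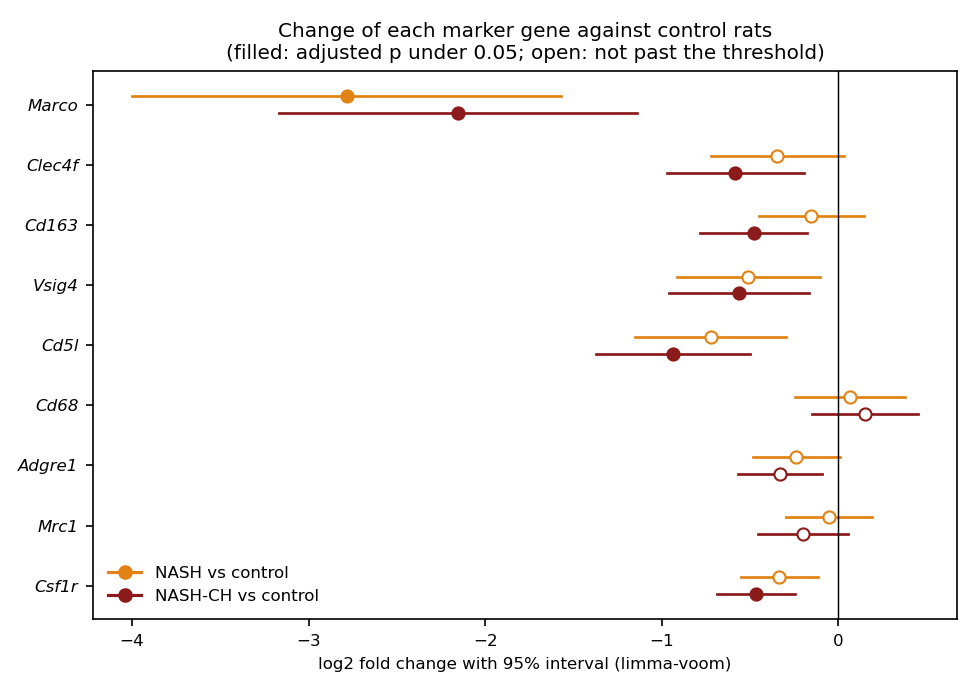
Log2 fold change against control (x axis, 95% interval as a line) of the 9 tested markers in NASH and NASH-CH rats, filled where the adjusted p was under 0.05. Marco stands apart at -2.78 and -2.15, 1 point is filled for NASH and 6 are filled for NASH-CH, and Cd68 lies to the right of 0 in both.

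Cd5l, which encodes a protein that macrophages secrete and that limits lipid storage and inflammation, had the next largest change. Its level ranged from 31.99 to 87.8 CPM in control rats (median 51.8), from 23.9 to 37.9 in NASH rats (median 33.7) and from 19.9 to 36.0 in NASH-CH rats (median 30.2). All 12 rats of the models lay below the control mean of 55.7 CPM, and control rat 4 was the only control rat within their ranges. Cd5l fell by 0.93 in NASH-CH (SE 0.21, adjusted p = 0.00534, limma), 1.91-fold, and kept this call in all 12 other analyses and all 12 fits without 1 rat. In NASH the log2 difference of -0.72 (SE 0.20) had an adjusted p of 0.0584 in limma, and the edgeR and DESeq2 tests called it.

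Clec4f encodes a C-type lectin that binds galactose-type sugars and is specific to Kupffer cells in rodents. Levels of Clec4f ran from 75.3 to 188 CPM in control rats (median 102), from 68.2 to 115 in NASH rats (median 81.9) and from 57.5 to 82.2 in NASH-CH rats (median 76.9). Control rats covered a wider range than either model, with rat 5 at the top. All NASH-CH rats lay below the control mean, as did every control rat except rat 5, and 2 of 6 NASH-CH rats lay below all controls. Clec4f fell by 0.58 in NASH-CH (SE 0.19, limma adjusted p = 0.0381), 1.5-fold, while the NASH difference was -0.35 (SE 0.18, adjusted p = 0.272). The NASH-CH call was lost in 4 of 12 other analyses and 7 of 12 fits without 1 rat.

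Vsig4 encodes a receptor for complement C3 fragments that captures blood-borne pathogens. Its level ranged from 13.8 to 26.5 CPM in control rats (median 16.9), from 9.48 to 14.6 in NASH rats (median 13.4) and from 8.58 to 18.1 in NASH-CH rats (median 12.7). In NASH, 5 of 6 rats lay below all controls, against 3 of 6 in NASH-CH. Nonetheless the NASH difference of -0.51 (SE 0.19) had an adjusted p of 0.141 in limma, and the NASH-CH decrease of 1.48-fold (log2 -0.56, SE 0.19) passed at 0.0470. That call was lost in 6 of 12 other analyses, with the replicate block among them (5 of 9 markers then passed), and in 7 of 12 fits without 1 rat. RefSeq places Heph within the same stretch as Vsig4, and whether counting used strand is not given in the sources used here.

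Timd4, a receptor for phosphatidylserine on dying cells, had few reads in every library. It had 1 to 4 reads per control rat, 1 to 3 per NASH rat and 2 to 8 per NASH-CH rat, the last in the deepest libraries. At this depth no difference was detectable: two-sided exact permutation tests of log2(CPM + 0.5) gave p = 0.225 for NASH and p = 0.195 for NASH-CH against control, and p = 0.926 between the models. Timd4 is therefore part of no count of tested markers.

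Cd163 encodes the scavenger receptor for haemoglobin bound to haptoglobin. It ranged from 33.9 to 53.9 CPM in control rats (median 43.3), from 32.3 to 51.9 in NASH rats (median 37.5) and from 23.8 to 40.7 in NASH-CH rats (median 30.0). NASH rats covered nearly the control range, while 4 of 6 NASH-CH rats lay below every control and 4 of 6 below every NASH rat. Cd163 fell by 0.48 in NASH-CH (SE 0.14, limma adjusted p = 0.0304), 1.39-fold. The NASH difference was -0.15 (SE 0.14, adjusted p = 0.578), and that between the models was -0.33 (SE 0.14, adjusted p = 0.242). The NASH-CH call was lost in 3 of 12 other analyses and 5 of 12 fits without 1 rat.

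Csf1r, the receptor for the growth factors CSF1 and IL-34 on which macrophages depend, was among the more stable decreases. Its levels ran from 31.5 to 46.9 CPM in control rats (median 37.9), from 26.7 to 35.1 in NASH rats (median 31.3) and from 24.2 to 34.2 in NASH-CH rats (median 27.0). In NASH-CH, 5 of 6 rats lay below all controls, and the rat above the lowest control was rat 5. Csf1r fell by 0.46 in NASH-CH (SE 0.11, limma adjusted p = 0.00635), 1.38-fold, and lost this call only under scaling by library size. The NASH difference was -0.33 (SE 0.10, adjusted p = 0.0805).

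Adgre1, which encodes the pan-macrophage antigen F4/80, had a small change. It ranged from 16.8 to 25.2 CPM in control rats (median 17.4), from 13.3 to 18.8 in NASH rats (median 15.5) and from 11.8 to 16.4 in NASH-CH rats (median 15.3). It was the only marker whose NASH-CH and control levels did not overlap, as held for 3.46% of all tested genes in that direction, and Marco was the only one in NASH (1.39%). The NASH-CH difference of -0.33 (SE 0.11) nevertheless had an adjusted p of 0.0547 in limma, and edgeR and DESeq2 called it. In NASH the difference was -0.24 (SE 0.12, adjusted p = 0.247). RefSeq gene models of Hspa14-ps1 and LOC103690497 overlap that of Adgre1, and those of Mir511 and LOC134482611 overlap that of Mrc1, with the same doubt over strand as for Vsig4.

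Mrc1, the mannose receptor, and Cd68, a lysosomal glycoprotein of all macrophages, did not pass in any comparison. Mrc1 ranged from 86.0 to 110 CPM in control rats (median 95.4), from 83.0 to 101 in NASH rats (median 93.9) and from 59.9 to 107 in NASH-CH rats (median 88.5). Its log2 difference was -0.05 in NASH (95% interval -0.30 to 0.19, adjusted p = 0.838) and -0.20 in NASH-CH (-0.45 to 0.06, adjusted p = 0.277). Both turned positive under scaling by library size, as did that of Cd163 in NASH. Cd68 ranged from 9.66 to 17.8 CPM in control rats (median 10.3), from 9.83 to 15.1 in NASH rats (median 11.7) and from 9.81 to 14.8 in NASH-CH rats (median 13.0). The groups overlapped throughout, with control rat 5 the highest of all rats. Its log2 difference was 0.07 in NASH (95% interval -0.24 to 0.38, adjusted p = 0.834) and 0.15 in NASH-CH (-0.15 to 0.45, adjusted p = 0.490). Without control rat 5 the estimates were 0.19 and 0.27, with adjusted p of 0.447 and 0.156.

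Between NASH-CH and NASH rats 0 of the 9 markers passed by limma, edgeR or DESeq2, where 4.2% of all tested genes passed by limma. Before adjustment, Cd163 alone was under 0.05. The median log2 difference of the markers was -0.13. The 6 calls of NASH-CH against the 1 call of NASH do not show that the models differ from each other.

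The ratio of each marker to Cd68 in the same library removes library size and TMM scaling. The Marco to Cd68 ratio had a median of 2.39 in control rats (range 1.28 to 2.52), 0.285 in NASH rats (0.206 to 0.632) and 0.462 in NASH-CH rats (0.0909 to 1.23). Against Cd68 neither model overlapped the controls. In NASH the ratios of Marco and Vsig4 lay below those of all controls, as did 0.674% of all tested genes. In NASH-CH the ratios of Marco, Clec4f, Vsig4, Cd5l, Adgre1 and Csf1r did, 6 of the 8 markers set against Cd68, beside 2.84% of all tested genes. Cd163 and Mrc1 overlapped the control ratios in both models. Control rat 5, which was highest for most markers in CPM, was not apart on this scale for Marco or Clec4f. Cd68 was the marker whose estimate lay above 0, and the separation depended on this choice of denominator. Against Csf1r, a denominator chosen after the data had been seen, the Marco ratio had medians of 0.665, 0.0992 and 0.223 for control, NASH and NASH-CH rats. In NASH it again lay below all controls (at most 0.297 against at least 0.343), as did 0.287% of all tested genes and no other marker. In NASH-CH 0 of 8 markers lay below all controls on that scale, beside 1.12% of all tested genes, since Marco reached 0.532. The others overlapped too, except that the Cd68 ratio lay above all controls, as did 16.1% of all tested genes.

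**Figure D3:**
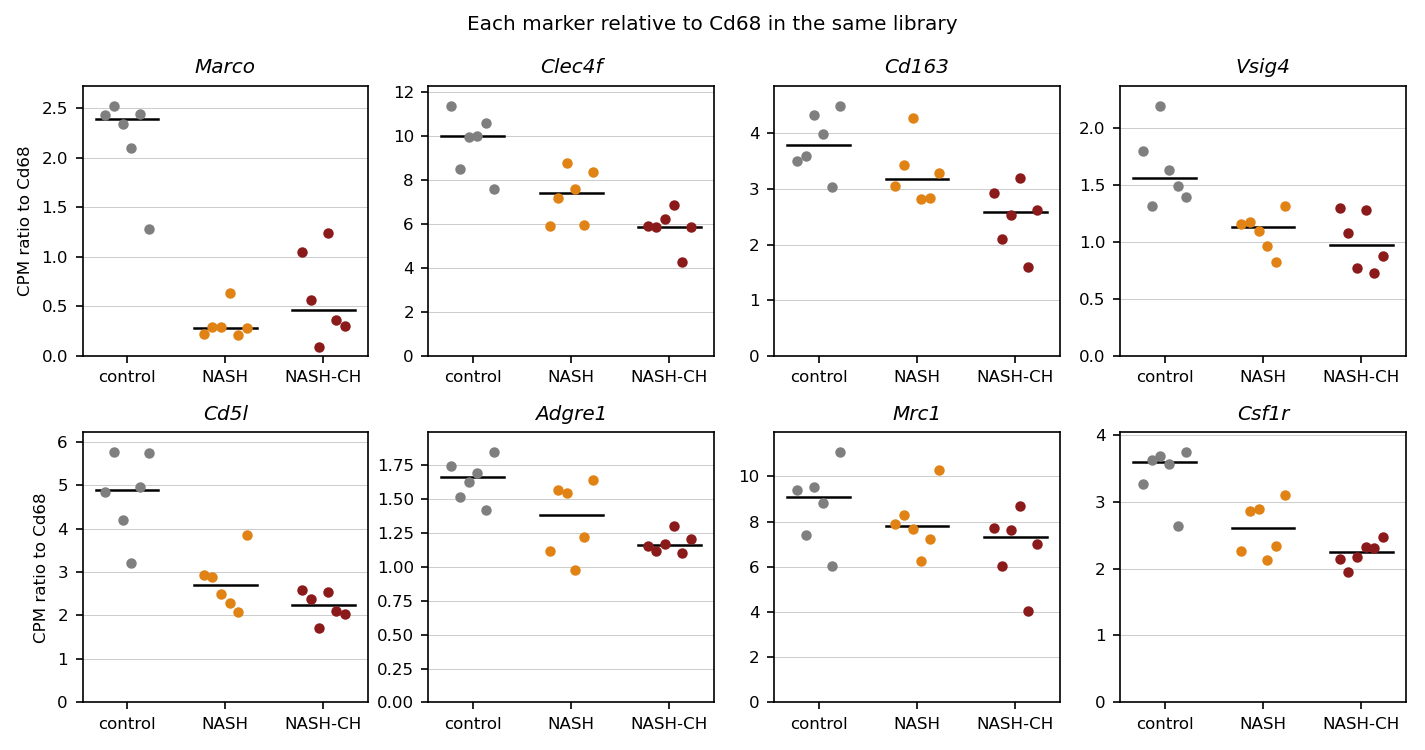
CPM of 8 markers divided by CPM of Cd68 in the same library (linear axes from 0), for 6 control, 6 NASH and 6 NASH-CH rats, with a line at each group median. In NASH-CH 6 ratios lie wholly below the control rats, whereas the Cd163 and Mrc1 ratios overlap in both models, and the Marco ratio has medians of 2.39, 0.285 and 0.462.

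Rats that were high for one marker tended to be high for others, measured as Pearson's r of deviations from group means of log2 CPM over 18 rats, which share library and scaling. Adgre1 and Csf1r were most alike among the markers (r = 0.816), followed by Marco and Vsig4 (r = 0.760), and Mrc1 was least like the rest (median r = 0.321). Over the tested genes other than small RNA genes and most placeholder symbols, the 3 most like Cd68 were C1qb, C1qa and Fcer1g (r = 0.828, 0.808 and 0.804). Those most like Csf1r were Itgb2, Ncf4 and Atp8b4 (r = 0.865, 0.859 and 0.847). C1qb also led the list of Clec4f (r = 0.841), before Timm8b and Tmem33 (r = 0.800 for each). In the list of Marco it came after Vsig4 (r = 0.741) and before Ntsr1 (r = 0.737). C1qa and C1qb encode chains of complement C1q, which liver macrophages make. The genes most like Mrc1, Vsig4 and Cd163 (Rn50_5_0814.6, N6amt1 and Kat8, r = 0.879, 0.879 and 0.783) include genes for a methyltransferase (N6amt1) and a histone acetyltransferase (Kat8). Cd5l was most like Bank1 (r = 0.794). Without control rat 5 these values moved to 0.705 for Cd68 with C1qb and 0.833 for Csf1r with Itgb2. That of Marco with C1qb moved to 0.788. That of Clec4f with C1qb moved to 0.734, below Clec4f with Timm8b at 0.795.

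A list of 16 other Kupffer cell and resident macrophage genes moved less evenly than the markers. In NASH 1 of 16 fell and 0 rose, beside 1.54% and 1.58% of all tested genes. In NASH-CH 5 fell and 1 rose, beside 8.6% and 8.38%. The list medians were -0.05 in NASH and -0.17 in NASH-CH. Fcna, which encodes the lectin ficolin A, fell in both, from a control mean of 15.3 CPM (SD 2.99, n = 6) to 9.61 (SD 1.199) in NASH (limma adjusted p = 0.0216) and 6.88 (SD 1.304) in NASH-CH (limma adjusted p = 1.59e-05). The NASH-CH and control levels of Fcna did not overlap, as held for 3.46% of all tested genes in that direction. Its highest NASH-CH rat stood at 8.77 CPM and its lowest control at 12.01. In NASH-CH the eosinophil chemokine gene Ccl24 fell by 1.10, the sialic acid receptor gene Siglec1 by 0.60 and C1qb by 0.42 (limma adjusted p = 0.0104, 0.0314 and 0.0318). The others past the threshold, named after their values were seen, were C1qc, which fell by 0.43, and the iron exporter gene Slc40a1, which rose by 0.40 (adjusted p = 0.0380 and 0.0421). Without control rat 5, 2 of these genes fell (Fcna and Ccl24) and Slc40a1 still rose in NASH-CH, and in NASH Fcna was no longer called while Slc40a1 passed as higher. Without NASH-CH rat 5, 5 fell and 0 rose in NASH-CH, Slc40a1 no longer being called. Under scaling by library size only Fcna and Ccl24 fell in NASH-CH, while Slc40a1 rose. On that scale 0 fell in NASH, Fcna no longer being called, and Slc40a1 and Hmox1 passed as higher.

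Of 9 tested transcription factors of macrophages and Kupffer cells, 0 passed in either model by limma, edgeR or DESeq2. By limma, 3.12% of all tested genes passed in NASH and 17% in NASH-CH. Spi1, which encodes PU.1, had group means of 2.56, 2.57 and 2.55 CPM for control, NASH and NASH-CH rats (SD 0.242, 0.318 and 0.474, n = 6 each). For Nr1h3, the liver X receptor gene that hepatocytes also express, the log2 differences were -0.13 in NASH and -0.16 in NASH-CH, and for Id3 they were -0.07 and -0.03. Id1 had differences of 0.17 and 0.45 (adjusted p = 0.755 and 0.199). Spic, with 2 to 24 reads per rat, was not tested. Under scaling by library size, Maf passed for NASH and Zeb2 for NASH-CH, both higher.

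The ligands and partners of the markers, 8 genes, had 0 calls against control in either model, beside 3.12% and 17% of all tested genes. Csf1 had means of 5.53, 4.07 and 7.04 CPM for control, NASH and NASH-CH rats (SD 2.53, 0.561 and 2.36, n = 6 each), with limma adjusted p of 0.431 and 0.296 against control. The other Csf1r ligand gene, Il34, had means of 1.54, 1.89 and 1.84 CPM (limma adjusted p = 0.426 and 0.441). The log2 differences of Hp, which encodes the haptoglobin that Cd163 takes up, were 0.04 in NASH and 0.32 in NASH-CH, and those of C3, the source of the Vsig4 ligands, were 0.19 and 0.42 (adjusted p = 0.0843 for the last, called by DESeq2, and called with Hp under scaling by library size). Hmox1, which encodes the enzyme that breaks down haem taken up with haemoglobin, had differences of 0.56 (adjusted p = 0.0815) and 0.30 (adjusted p = 0.259), and was called higher in NASH by DESeq2, under scaling by library size and without NASH-CH rat 5. The Notch ligand gene Dll4 was lower in NASH-CH than in NASH (log2 -0.84, adjusted p = 0.0458). DESeq2 also called it, but the call was lost by edgeR, under scaling by library size and without either rat 5 or both.

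**Figure D4:**
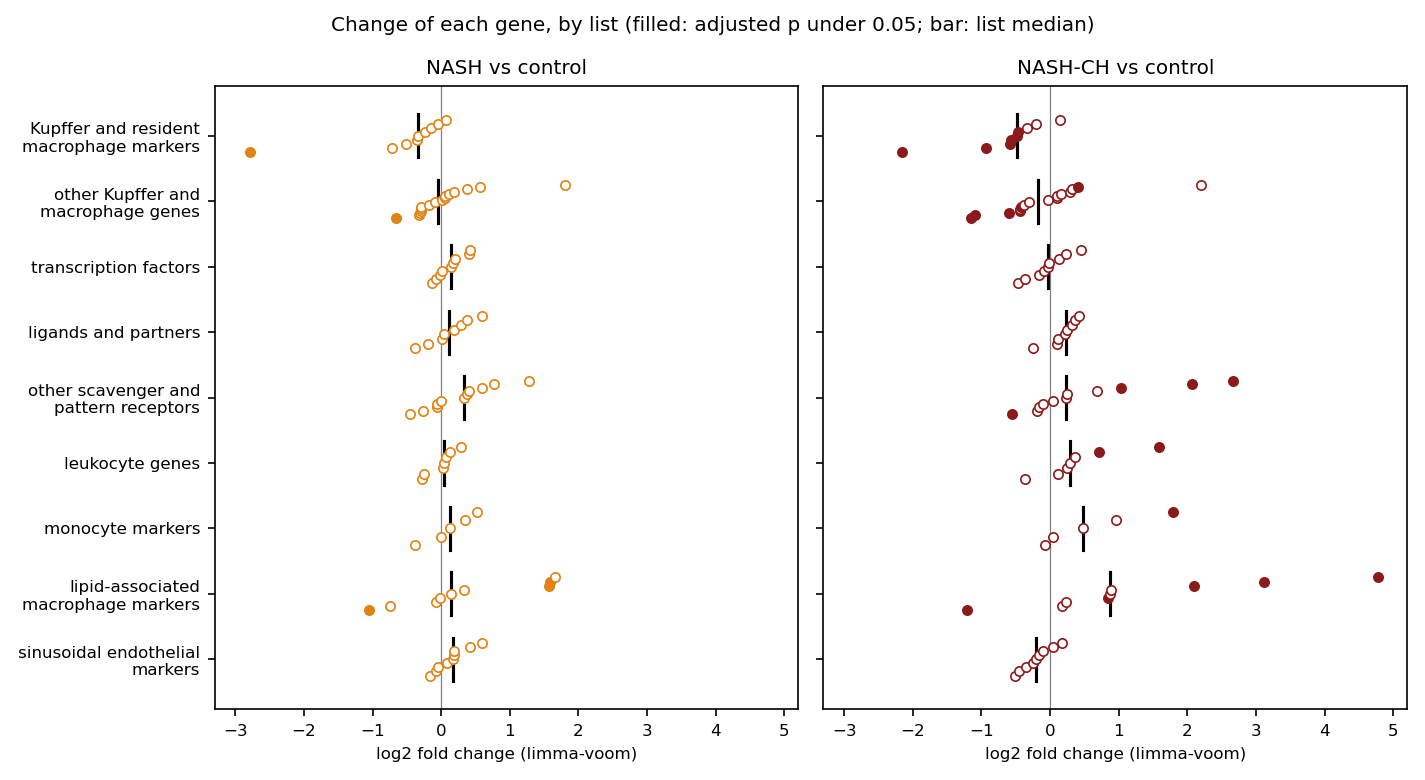
Log2 fold change against control of each tested gene in 9 lists (1 point per gene, filled where the adjusted p was under 0.05, bar at the list median), for NASH on the left and NASH-CH on the right. The marker list has its median at -0.33 and -0.48, the list of lipid-associated macrophage genes at 0.15 and 0.87, and its rightmost point in NASH-CH is Trem2, whose fitted value rests on at most 1 read per control rat.

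Other scavenger and pattern receptors, 11 genes, had 0 calls in NASH, where 3.12% of all tested genes passed. In NASH-CH 3 rose and 1 fell, beside 8.38% and 8.6% of all tested genes. Msr1, a scavenger receptor of the same class as Marco, fell by 0.55 (SE 0.15, limma adjusted p = 0.0172), from 38.6 to 68.5 CPM in control rats to 27.1 to 37.2 in NASH-CH rats, and lost this call under scaling by library size and when control rat 5 and NASH-CH rat 5 were left out together. Scara5, a ferritin receptor gene, rose 6.37-fold from a level of 0.308 to 0.645 CPM in control rats to 1.88 to 4.48 in NASH-CH rats (adjusted p = 0.000124). Clec7a, the beta-glucan receptor dectin-1, rose 4.20-fold (adjusted p = 0.00392), and the fatty acid receptor gene Cd36 rose 2.05-fold (adjusted p = 0.0272). The Cd36 call was lost without control rat 5, alone or together with NASH-CH rat 5, which left 2 genes higher. In NASH, edgeR called Scara5 higher and DESeq2 called Scara5 and Stab1.

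Markers of lipid-associated macrophages, which appear in fatty and fibrotic liver, had more genes higher than lower in NASH-CH. Of 9 tested genes 2 rose and 1 fell in NASH, beside 1.58% and 1.54% of all tested genes. In NASH-CH 4 rose and 1 fell, beside 8.38% and 8.6%. Gpnmb rose from 2.62 to 9.19 CPM in control rats to 14 to 24.7 in NASH rats and 35.1 to 96.6 in NASH-CH rats (adjusted p = 0.00667 and 5.32e-07). No groups overlapped. Such a rise without overlap held for 1.77% of all tested genes in NASH and 3.64% in NASH-CH against control. It held for 1.36% in NASH-CH against NASH. Trem2 had 0 to 1 reads per control rat, 0 to 7 per NASH rat and 21 to 96 per NASH-CH rat (adjusted p = 6.53e-06 for NASH-CH). Lpl, a lipase gene that other cells also express, rose 3.00-fold and 4.29-fold (adjusted p = 0.0260 and 0.000811), while the fatty acid carrier gene Fabp5 fell 2.07-fold and 2.31-fold (adjusted p = 0.0360 and 0.00306). Lgals3, named after its value was seen, rose 1.80-fold in NASH-CH (adjusted p = 0.0124). Without control rat 5, Gpnmb alone passed in NASH, and in NASH-CH 4 again rose and 1 fell. Without NASH-CH rat 5, which had an Lpl level of 108 CPM against at most 45.2 in the rest of its group, both sets of counts were as with it. The part of such macrophages in the levels of the resident markers was not tested.

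Markers of other cell types were measured in the same libraries. Beside the counts that follow, 3.12% of all tested genes passed in NASH and 17% in NASH-CH, in about equal shares higher and lower. Among 7 leukocyte genes 0 passed in NASH, and 2 rose in NASH-CH, Lyz2 (3.00-fold, adjusted p = 0.000659) and Cd53 (1.64-fold, adjusted p = 0.0408), with Aif1 also lower in NASH-CH once NASH-CH rat 5 was left out and summed levels of 45.2 to 74.7, 44.2 to 64.2 and 61.4 to 171 CPM for control, NASH and NASH-CH rats. Of 5 tested monocyte markers only Vcan passed, rising 3.48-fold in NASH-CH (adjusted p = 0.000720). Ccr2, the receptor of recruited monocytes, had 0 to 1 reads in each control and NASH rat and at most 15 in a NASH-CH rat, the highest being rat 5, and was not tested. Sinusoidal endothelial markers, relevant to Mrc1, had 0 of 9 genes past the threshold against control in either model, with medians of 0.18 and -0.21 and summed levels of 332 to 436, 382 to 427 and 213 to 385 CPM. Stellate cell markers had 0 higher and 1 lower in NASH and 2 higher and 1 lower in NASH-CH of 7, and hepatocyte markers 1 and 1 in NASH and 1 and 3 in NASH-CH of 7. No tested gene passed against control among 3 cholangiocyte, 5 dividing cell, 1 neutrophil, 1 T cell and 1 B cell genes. All 5 dividing cell estimates were nonetheless below 0 in both models, with medians of -2.67 in NASH and -0.93 in NASH-CH. All 5 passed as lower in both once NASH-CH rat 5 was left out of the fit (4 in NASH and 5 in NASH-CH without both rats 5). Without control rat 5, 0 passed. In NASH, DESeq2 called 3 of them lower and edgeR 2. Without NASH-CH rat 5 or by DESeq2 the sinusoidal gene Stab1 passed as higher in NASH, and under scaling by library size Stab1 and Stab2 did. DESeq2 also called the sinusoidal gene Dnase1l3 lower in NASH-CH, and edgeR called the cholangiocyte gene Cftr higher in NASH-CH. Of the 7 neutrophil markers, Mpo and Elane were at 0 in every NASH rat, but also had only 0 to 1 reads per control rat. In NASH-CH they had at most 36 and 15 reads per rat, so these counts show no loss in NASH. The part of these cell types in the marker levels was not tested.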

How the data were processed

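Liver RNA-seq of 6 control, 6 NASH and 6 NASH-CH rats was analysed, with groups taken from the sample labels. Per the submitters' processing notes, reads were checked with FastQC, trimmed with Trim Galore, aligned to Rnor_6.0 with STAR and counted with RSEM. Versions and the strand setting are not given in the sources used here. Different extraction kits are named, RNAqueous-Micro by the labels and miRNeasy by the methods, and the labels cite a TruSeq Stranded mRNA guide. As values, the authors deposited RSEM expected counts per gene, not normalized, in 1 table per rat. Of these values 7.12% were not whole numbers, and all were rounded. No lengths were used, so levels are not compared between genes.

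Counts were scaled by TMM (edgeR 4.0.16), filtered with filterByExpr (12904 of 32623 genes kept) and tested with limma-voom (limma 3.58.1, R 4.3.3) in 1 fit of 18 rats. Benjamini-Hochberg adjustment was over all tested genes, with a threshold of 0.05. TMM, voom of rounded expected counts and moderated t are those of the methods, which state neither a filter nor a single fit. For Timd4, which failed the filter, exact permutation tests (two-sided, smallest possible p 0.00216) were used. The members and lists were chosen with earlier results of these data known. All 10 markers were named, with at most 4 called genes per other list and comparison by smallest adjusted p and genes tied to a marker. The 3 genes most like each marker were also named, ranked by Pearson's r of deviations from group means of log2 CPM (prior count 2). Small RNA genes and most placeholder symbols were left out of that ranking. Slc40a1 had more than 1 row, and the row with more counts was used. The limma, edgeR and DESeq2 fits were tested on simulated data. As alternatives, DESeq2 1.42.0, the quasi-likelihood test of edgeR, DESeq2 size factors, library size only, no filter, a minimum of 10 counts per sample, a fit of 2 groups, sample quality weights, the replicate block, thinned NASH-CH counts, no small RNA genes and leaving out each rat were tried. Leaving out control rat 5 and NASH-CH rat 5 together and the ratio to Csf1r were chosen after the data had been seen. Promoters came from RefSeq (GRCr8). Totals of 19498516 to 60117806 counts per rat bear on counting error, and depth cannot be told apart from the NASH-CH group. Precision is limited by 6 rats per group. Figures were drawn with matplotlib 3.10.9 in Python 3.11.15.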

Additional observations from a re-analysis of the deposited data

Results flagged for a closer look

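In 5 of 30 groups of 6 rats (10 markers in 3 groups), the highest or lowest rat lay so far from the nearest other that the gap, as a share of the range, exceeded Dixon's critical value. For independent, normally distributed values chance alone gives about 1 such group in 20. The 30 groups share rats and scaling, so 5 of 30 cannot be set against that rate. Marco stood at 9.56 CPM in NASH rat 4, while the other 5 NASH rats reached at most 3.55. Without that rat its log2 fold change in NASH was -3.05. Vsig4 stood at 9.48 CPM in NASH rat 5, below the others. Control rat 5 was the highest for the remaining 3: Clec4f at 188 CPM, Cd68 at 17.8 and Adgre1 at 25.2. That rat had the highest level of 8 of the 9 tested markers in its group and a TMM factor of 0.790, and whether its scaling plays a part was not tested.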

How the results depend on the processing

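In NASH against control, the number of markers past the threshold was 1, with 2 by edgeR, 3 by DESeq2 and 4 with sample quality weights, and 1 to 2 when 1 rat was left out (2 without control rat 4, which added Cd5l). In NASH-CH against control it was 6, with 2 under library size only, 3 with sample quality weights, 3 without control rat 5 and NASH-CH rat 5 together, and 3 to 6 when 1 rat was left out (3 without control rat 3, control rat 5 or NASH-CH rat 6). It was 7 by edgeR, by DESeq2 and with no filter on low counts, 5 with NASH-CH counts thinned (without Vsig4) and 4 with the 2 groups fitted alone. Between the models it was 0 in every alternative. The number of markers whose ratio lay below all controls was 2 in NASH and 6 in NASH-CH against Cd68, and 1 and 0 against Csf1r. The cause of these shifts was not tested. No marker past the threshold changed direction in any alternative. Among those not past it, the sign turned under library size only for Cd163 in NASH (0.068) and for Mrc1 in NASH (0.17) and NASH-CH (0.053). For Vsig4 between the models it turned with sample quality weights (0.14) and when 1 rat was left out (-0.17 to 0.049), and for Timd4 between the models when 1 rat was left out (-0.024 to 0.012). Rats share the numbers 1 to 6 across groups, but the deviations of same-numbered rats correlated over 0.1 in only 2, 1 and 0 of 6 pairs, so the numbers were not taken as pairs. With the replicate block 1 marker passed in NASH, 5 in NASH-CH (without Vsig4) and 0 between the models. Timd4 had at most 8 reads per rat.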
